A study of Xenopus laevis with 6 samples.

Results

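The inner cut of the hind limb bud of Xenopus laevis, the African clawed frog, separates a proximal segment next to the body wall from a medial segment in the middle of the bud. Transcript levels on the medial side of this cut were compared with those on the proximal side in 4 of the 6 RNA sequencing libraries of the series, 2 medial and 2 proximal; the other 2 libraries, from the distal segment at the limb tip, are given as levels beside them. All tadpoles were wild type and untreated, at stage 51, a larval stage before the digits separate. Each library was made from 1 µg of total RNA of a pool of 30 hind limbs, so animals were not sequenced one by one, and the 2 pools of a segment (pool 1, named Black, and pool 2, named Red) are its only replicates. How far from the body wall the limbs were cut is not given in the sources used here, so what the proximal segment holds of the limb base cannot be told from the labels.

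A tetrapod limb bud is a sac of mesenchyme under ectoderm whose cells acquire proximal, middle or distal identity as the bud grows out. In chick and mouse, the base of the bud is marked by the homeobox regulators Meis1 and Meis2, which respond to retinoic acid made by Aldh1a2 in the trunk. The enzyme Cyp26b1 degrades retinoic acid further out, and fibroblast growth factors of the tip ectoderm keep the distal cells growing. HoxA and HoxD genes of the later paralogue groups are used in turn from the base to the digits, and Sonic hedgehog from the posterior margin sets the order from thumb to little finger. Muscle precursors, blood vessels and nerves enter the bud from the body.

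The proximal pools held 10815041 and 35479915 fragments assigned to genes, the medial pools 28485939 and 28471843, and the distal pools 23079754 and 14111643. Levels are in CPM, that is, counts divided by the library's total after TMM scaling, and 3 counts, the floor used here, equal 0.283 and 0.084 CPM in proximal pools 1 and 2 and 0.11 and 0.109 CPM in the medial pools. Floors cover counting error only. Pools of a segment differed in the summed level of some gene groups. That of 70 epidermal gene copies was 3589 CPM in medial pool 1 and 2143 CPM in medial pool 2, against 3372 and 3109 CPM in the proximal pools, and the sums of contractile muscle and red blood cell genes, given with those groups, differed between the proximal pools. The limb identity of all 4 libraries was checked with 2 markers. The limb mesenchyme gene prrx1.L stood at 273 and 261 CPM in the proximal and 343 and 374 CPM in the medial pools, and the hind limb selector pitx1.L at 301 and 309.7 CPM in proximal and 333 and 363 CPM in medial. By the test described below, prrx1.L was itself higher in medial (log2 fold change 0.43, edgeR adjusted p = 0.0173).

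Crossing the inner cut outwards, more genes fell than rose, and large changes were mostly falls. Of 27007 genes that passed a filter on low counts, 2053 differed between medial and proximal in edgeR's quasi-likelihood test at a Benjamini-Hochberg adjusted p under 0.05 (called below; 7.6% of the genes tested). Among them 736 were higher in medial (2.73%) and 1317 lower (4.88%). Of the higher genes 251 changed 2-fold or more and 78 changed 4-fold or more, and of the lower genes 726 and 298. The median log2 fold change over all genes tested was −0.0028. Without proximal pool 2, which leaves the shallowest library as the only proximal one, 996 genes were called (359 higher, 637 lower, 571 at least 2-fold). Without proximal pool 1 the number of higher genes was 480.

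**Figure D1:**
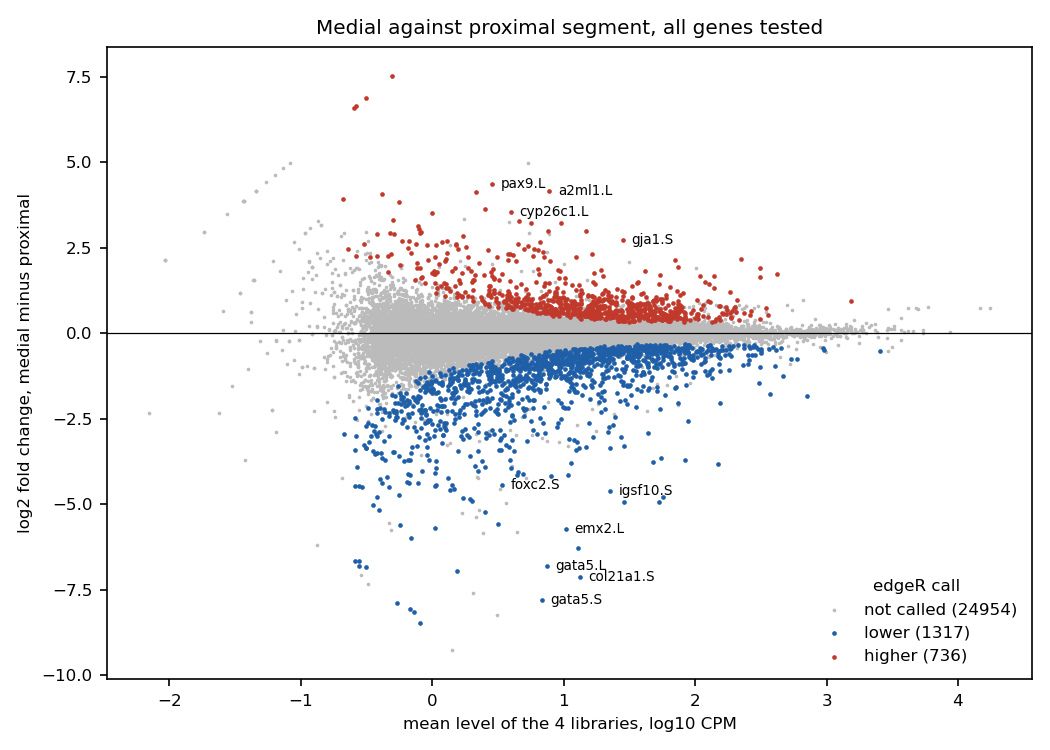
Each point is a gene: the horizontal axis is its mean level over the 4 libraries in log10 CPM, and the vertical axis the edgeR log2 fold change of medial minus proximal. The 1317 called falls (blue) reach below −7 on the log2 scale, and the 736 called rises (red) are fewer.

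Gene names exist in the files only for genes that the authors had called between some pair of segments, 6912 of those tested here. Of these named genes 26.6% were called, 9.82% higher and 16.7% lower, and their median log2 fold change was 0.012; the gene groups described below are counted among named genes and are to be read against these shares. Genes named within a group are those with the largest changes, its defining members, and some that were chosen after their values had been seen. A value in parentheses with its SE, given after the levels of a gene, is the edgeR log2 fold change of medial minus proximal. After scaling, the median log2 fold change of all genes tested ran from −0.0073 without medial pool 1 to 0.011 without globin genes. The scaling itself centres most genes, so this cannot show whether levels shifted as a whole. L and S mark the copies of a gene on the chromosome sets of this allotetraploid frog, and positions are those of the deposited table, whose genome build is not stated.

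The 15 largest falls by log2 fold change, among called genes with at least 5 CPM in proximal and the same direction between pools of the same number, held 8 copies of homeobox, GATA, T-box and forkhead regulators. Both copies of gata5, a zinc finger factor known from heart and gut development, were among them. gata5.S (gene14389, chromosome 9_10S, 13133931 to 13166920) stood at 14.2 and 13.1 CPM in the proximal pools and 0.0734 and 0.0363 CPM in the medial pools (edgeR adjusted p = 2.2e-07). With 618 fragments in proximal and 3 in medial, it was 244-fold lower in medial, with an exact 95% counting interval of 83.1 to 1186. The interval covers counting error only and leaves out the spread between pools. gata5.L (gene41331, chromosome 9_10L, 14516475 to 14548134) stood at 14.7 and 14.9 CPM in proximal and 0.11 and 0.145 CPM in medial (log2 fold change −6.80, SE 0.33). Proximal and medial pools lay far apart for both copies, and neither copy exceeded 0.135 CPM in a distal library.

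Goosecoid, a homeobox gene of the gastrula organizer that is also expressed in limb buds, also fell in both copies, from a higher level. gsc.L (gene15635, chromosome 8L, 65913057 to 65916036) stood at 98.1 and 108 CPM in the proximal and 2.64 and 4.06 CPM in the medial pools, and gsc.S (gene10355, chromosome 8S, 19970308 to 19975036) at 55.8 and 56.1 CPM in proximal and 1.58 and 2.07 CPM in medial. Their log2 fold changes were −4.94 (SE 0.17, adjusted p in edgeR = 6.46e-08) and −4.94 (SE 0.14, adjusted p in edgeR = 1.03e-08). No medial pool reached 5 CPM of either copy, whereas no proximal pool was under 55 CPM.

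emx2.L (gene19500, chromosome 7L, 4338699 to 4348239), a homeobox gene required for the scapula in mouse, stood at 19.6 and 21.1 CPM in proximal and 0.55 and 0.218 CPM in medial (log2 fold change −5.72, SE 0.25, adjusted p in edgeR = 1.62e-07). It came back to 3.67 and 3.78 CPM in distal, so the medial segment was the lowest of the series. tbx20.L, a T-box gene best known from the heart, stood at 13.8 and 16.5 CPM in proximal and 1.03 and 0.653 CPM in medial, and six2.S, a homeobox gene of kidney and connective tissue precursors, at 18.8 and 21.9 CPM in proximal and 1.06 and 1.23 CPM in medial. Their log2 fold changes were −4.18 and −4.15 (SE 0.23 and 0.23), and both went on falling towards the tip. foxc2.S, a forkhead gene of somite and vessel development, fell by 4.44 on the log2 scale, from 6.71 and 6.24 to 0.403 and 0.181 CPM.

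The remaining large falls were mostly of matrix, ligand and carrier genes. col21a1.S (gene37626, chromosome 5S, 77540910 to 77628949), a fibril-associated collagen, stood at 26.1 and 27 CPM in proximal and 0.0734 and 0.29 CPM in medial (log2 fold change −7.15, SE 0.30). Its medial and distal pools stayed under 1 CPM, far below the proximal pools. igsf10.S, an immunoglobulin superfamily gene, fell by 4.63, the retinoic acid binding protein gene crabp1.S by 4.12, the BMP family ligand gene gdf6.S by 4.05 and the potassium channel subunit gene kcne1.S by 3.94 on the log2 scale. tnn.L, which encodes a tenascin of dense connective tissue, stood at 97 and 121 CPM in proximal and 5.72 and 2.14 CPM in medial (log2 fold change −4.80, SE 0.57, adjusted p in edgeR = 0.0224). Its call was lost without proximal pool 1 (log2 fold change −4.94) and without proximal pool 2 (log2 fold change −4.61). The pools of the 2 segments did not overlap, which held for 43.6% of all genes tested. In a bulk library, fewer cells of a type and less RNA per cell cannot be told apart, here and in every result that follows.

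The 15 largest rises had log2 fold changes from 2.31 to 4.36, and the 15 largest falls from −3.94 to −7.82. The minimum of 5 CPM in the higher segment set the starting level of falls and the end level of rises, so starting levels are not compared. pax9.L (gene13748, chromosome 8L, 86054516 to 86085692), a paired box gene of the anterior limb margin in mouse, stood at 0.283 and 0.252 CPM in proximal, 5.76 and 5.08 CPM in medial and 18.8 and 16.8 CPM in distal (log2 fold change at the inner cut 4.36, SE 0.26). vegfd.L (gene4824, chromosome 2L, 28194499 to 28235932), a growth factor of lymphatic and blood vessels, stood at 1.04 and 0.756 CPM in proximal and 8.4 and 7.95 CPM in medial (log2 fold change 3.28, SE 0.24, adjusted p in edgeR = 8.5e-06) and returned to 2.55 and 1.96 CPM in distal. spon2.L, a secreted spondin, stood at 1.04 and 1.12 CPM in proximal and 11.8 and 8.67 CPM in medial, with 10.8 and 10.9 CPM in distal (log2 fold change 3.21, SE 0.22). For these genes each medial pool was above each proximal pool.

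gja1.S (gene44600, chromosome 5S, 54403708 to 54406382) encodes connexin 43, a gap junction protein, and was the most abundant gene among the 15. It stood at 7.75 and 7.06 CPM in proximal and 49.8 and 47.5 CPM in medial, and its log2 fold change was 2.74 (SE 0.10, adjusted p in edgeR = 6.46e-08), with 77.3 and 75.2 CPM in distal. slc39a12.S, a zinc transporter, rose from 5.1 and 2.44 to 27.1 and 24.3 CPM, and nos1.L, a nitric oxide synthase, from 2.64 and 1.29 to 13.8 and 12.4 CPM. dclk1.L, a doublecortin-like kinase, rose from 1.51 and 1.93 to 10.4 and 12.5 CPM, and arhgap22.L, a GTPase-activating protein gene, from 1.79 and 1.43 to 8.58 and 9.58 CPM. All 4 had log2 fold changes between 2.56 and 2.99.

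rergl.S, a small GTPase of the Ras family, rose from 1.98 and 1.76 to 11.7 and 8.38 CPM and stood at 0.167 and 0.135 CPM in distal. Of the 2 gene models named sox2.L, a gene of neural and sensory precursors, gene45195 had the higher level and stood at 1.51 and 2.27 CPM in proximal, 11.2 and 10.7 CPM in medial and 1.08 and 0.473 CPM in distal. Its medial level was thus the highest of the series, with a log2 fold change of 2.43 across the inner cut (SE 0.24). The other model, gene41682, stood at 0.283 and 0.308 CPM in proximal and 1.87 and 1.78 CPM in medial, and its call was lost without proximal pool 2 (adjusted p = 0.144).

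The choice of the 15 rises by direction favoured medial pools above proximal pools, so this order adds no support to a call. It also held for the 4 of the 15 whose calls did not survive leaving out a library. They were a2ml1.L, a protease inhibitor of the macroglobulin family (log2 fold change 4.15, adjusted p = 0.00928 with all libraries), cyp26c1.L, which degrades retinoic acid, and both copies of sall3, a spalt family zinc finger gene. Proximal pool 1 was higher than pool 2 in each, for sall3.S 3.68 and 1.09 CPM and for cyp26c1.L 1.32 and 0.364 CPM. Across the libraries left out, the highest edgeR adjusted p was 0.211 for a2ml1.L without proximal pool 2, 0.344 for cyp26c1.L without proximal pool 2, 0.0936 for sall3.S without medial pool 1 and 0.126 for sall3.L without medial pool 2.

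**Figure D2:**
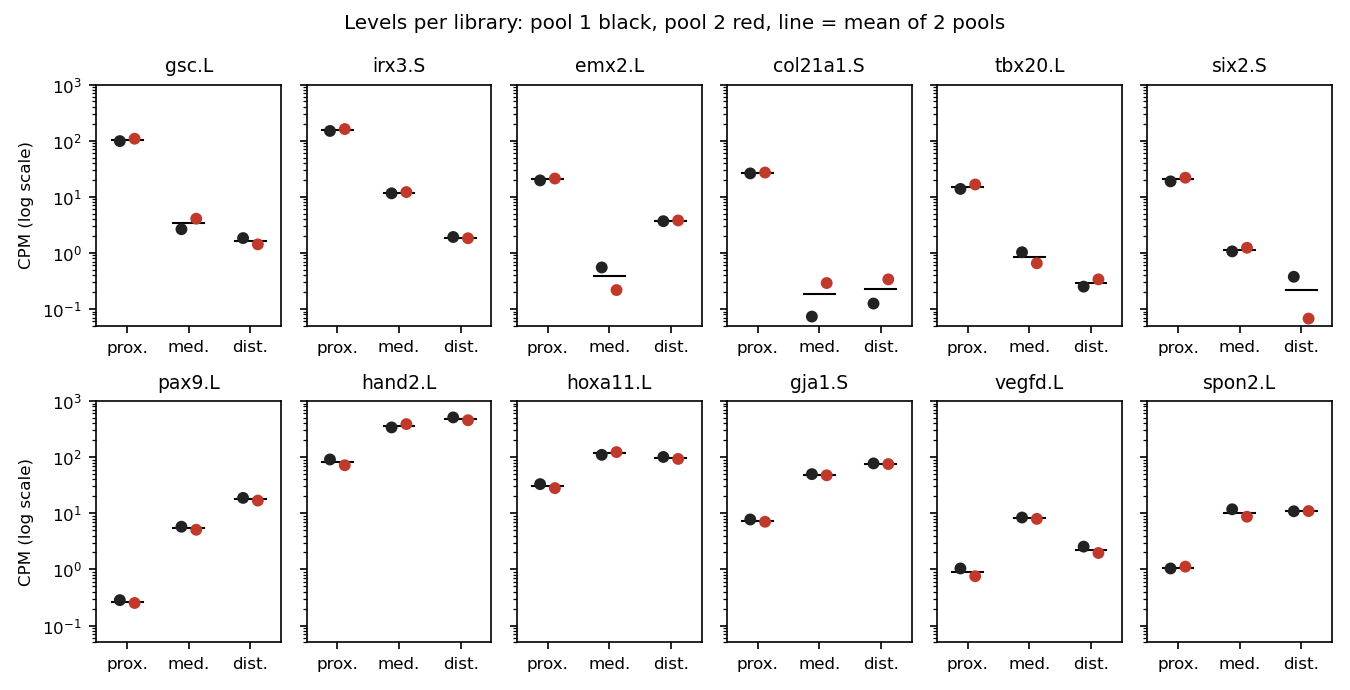
Each panel gives a gene's level in CPM on a log axis in the proximal, medial and distal segments; points are pools (pool 1 black, pool 2 red) and the line is the mean of 2 pools. In the upper row the proximal pools lie above all others; in the lower row the medial pools lie above the proximal pools, and vegfd.L falls again in distal.

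Regulators known from the base of the limb bud mostly fell across the inner cut. Of 27 named copies of Meis, Irx, Shox2, Emx2, Tbx15, Tbx18 and related genes, 19 fell and 5 rose, with a median log2 fold change of −0.99. meis2.L stood at 240.5 and 260.3 CPM in the proximal and 59 and 61.4 CPM in the medial pools (log2 fold change −2.06, SE 0.10, adjusted p in edgeR = 3.87e-07). meis1.S fell by 2.23 and meis3.L by 2.22 on the log2 scale; exons of meis1.S overlap another annotated gene, and counting did not use strand, so its value is uncertain. In each of these 3 genes both medial pools were under both proximal pools. The pools of the segments did not overlap for 43.6% of all genes tested, so this order adds little to the calls. pbx3.S, which encodes a homeobox partner of Meis proteins, fell by 0.99.

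The Iroquois genes, homeobox regulators that in mouse act in the early proximal and anterior hind limb, gave the largest falls of the group after emx2. irx3.S stood at 149 and 161 CPM in proximal and 11.5 and 12.1 CPM in medial (log2 fold change −3.71, SE 0.10, adjusted p in edgeR = 1.03e-08). irx5.S stood at 85 and 92.3 CPM in proximal and 5.98 and 7.04 CPM in medial (−3.77, SE 0.11), and irx3.L at 51 and 53.5 CPM in proximal and 4.99 and 5.62 CPM in medial (−3.30, SE 0.11). irx1.L, irx2.L and irx5.L fell by 3.12, 2.19 and 2.76 on the log2 scale. All 4 genes of this family named in the files, irx1, irx2, irx3 and irx5, were lower in medial in every named copy. Copies that the authors called between no pair of segments have no name, so this does not cover the whole family.

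Not every gene of the group fell. tbx15.L, a T-box gene of limb mesenchyme, stood at 256 and 265 CPM in proximal and 416 and 443 CPM in medial (log2 fold change 0.72, SE 0.09), and tbx18.L rose by 1.00. Both had their highest level in the medial segment, with 197 and 191 CPM of tbx15.L and 39.9 and 41.3 CPM of tbx18.L in distal. Both copies of pknox2, a homeobox gene of the same class as Meis, rose: pknox2.L stood at 3.02 and 2.91 CPM in proximal, 13.6 and 11.9 CPM in medial and 65.5 and 56.4 CPM in distal.

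The Hox clusters moved in different directions across the cut. Of 43 named copies, 18 rose and 17 fell. Without proximal pool 2 the counts were 11 and 8. All 13 named HoxB copies, genes best known from trunk and hindbrain, fell, by 1.00 to 3.92 on the log2 scale. None of the 12 HoxA copies fell and 9 rose, while 7 of 11 HoxD copies rose and 1 fell. HoxC was split, with 3 of 7 lower and 2 higher. Hox copies that the authors called between no pair of segments have no name and are not in these counts.

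In HoxB, hoxb3.S stood at 17.9 and 21 CPM in proximal and 2.31 and 2.25 CPM in medial (log2 fold change −3.10, SE 0.16, adjusted p in edgeR = 6.9e-07), and hoxb3.L at 11.9 and 13.7 CPM in proximal and 1.5 and 1.89 CPM in medial. hoxb7.L stood at 5.1 and 7.34 CPM in proximal and 0.807 and 0.798 CPM in medial and hoxb7.S at 4.63 and 4.84 CPM in proximal and 0.22 and 0.399 CPM in medial. Proximal and medial pools were well apart for each, and distal levels were low as well, with 1.34 and 1.49 CPM for hoxb3.S. The other HoxB copies were under 5 CPM in every library.

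In HoxA and HoxD the rises from at least 1 CPM in proximal were largest for the later paralogue groups. hoxa11.L, a gene of the middle limb segment in mouse, stood at 33.1 and 28 CPM in proximal and 109.9 and 123 CPM in medial (log2 fold change 1.94, SE 0.11, adjusted p in edgeR = 1.23e-06), and hoxa11.S at 26.4 and 25 CPM in proximal and 79.1 and 86.4 CPM in medial. hoxa10.L rose by 1.11 and hoxa9.L by 1.01. hoxd11.L stood at 1.32 and 1.23 CPM in proximal and 7.7 and 7.62 CPM in medial (2.60, SE 0.17) and hoxd10.L at 3.02 and 2.58 CPM in proximal and 10 and 10.1 CPM in medial (1.89, SE 0.15). Medial pools were above proximal pools for all of these, and 43.6% of all genes tested had pools that did not overlap. The largest called rises of earlier groups were of hoxd1.L, which was under 1 CPM in proximal, and hoxd8.L. Their log2 fold changes were 2.46 and 1.03.

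The digit genes of group 13 did not follow as clearly. hoxa13.L stood at 13.8 and 11.2 CPM in proximal and 11.8 and 5.23 CPM in medial, overlapping ranges, and did not pass the test (edgeR adjusted p = 0.646, or 8.77e-05 without medial pool 1). hoxd13.L stood at 4.16 and 1.65 CPM in proximal and 12.1 and 10.2 CPM in medial (log2 fold change 2.24, SE 0.35, adjusted p in edgeR = 0.0159), but its call was lost without medial pool 1 (adjusted p = 0.0813) and without medial pool 2 (adjusted p = 0.0655). In HoxC, hoxc12.L rose by 2.29, from 1.23 and 1.48 to 6.38 and 7.4 CPM, hoxc3.L fell by 1.61, and hoxc10.L stood at 34.8 and 35.6 CPM in proximal and 30.9 and 33.8 CPM in medial with no detectable difference (edgeR adjusted p = 0.604).

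**Figure D3:**
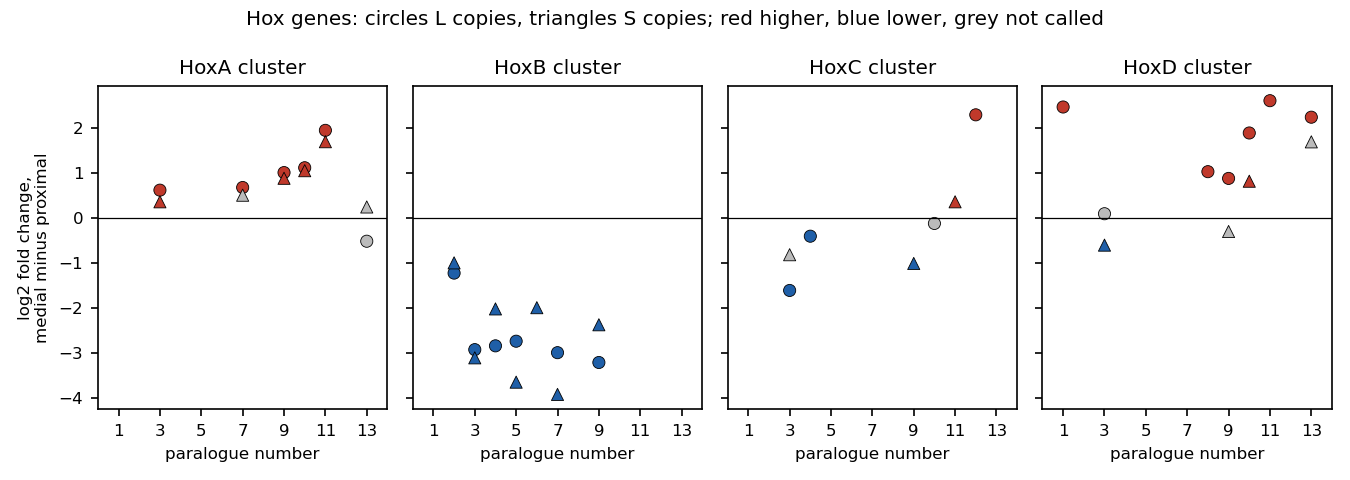
Each panel is a Hox cluster, with the paralogue number on the horizontal axis and the edgeR log2 fold change of medial minus proximal on the vertical axis; circles are L and triangles S copies, red called higher, blue called lower, grey not called. All 13 HoxB points lie below 0, and the HoxA and HoxD points above 1 are mostly of groups 9 to 13.

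Genes of the flank and of the base of the hind limb mostly fell where they moved. Of 14 named copies, 7 fell and 1 rose, with a median log2 fold change of −1.30; without proximal pool 1 none rose, and without medial pool 1 there were 2 rises. The orphan receptor gene nr2f1.L stood at 39.3 and 42.5 CPM in proximal and 5.03 and 7.66 CPM in medial (−2.69, SE 0.17), and nr2f1.S at 24.1 and 29.9 CPM in proximal and 4.15 and 4.65 CPM in medial. isl1.L, a LIM homeobox gene that starts the hind limb field in mouse, stood at 19.6 and 21.7 CPM in proximal and 7.41 and 11.1 CPM in medial (−1.16, SE 0.20; adjusted p = 0.0919 without proximal pool 2). In contrast pitx1.L, the hind limb selector, did not pass the test (edgeR adjusted p = 0.358), nor did osr2.L, an odd-skipped gene of connective tissue and joints, at 54.8 and 61 CPM in proximal and 63.9 and 62.1 CPM in medial. nr2f2.L stood at 76.2 and 81.2 CPM in proximal, 24.6 and 24.5 CPM in medial and 97.1 and 89.2 CPM in distal, lowest in the middle.

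Genes that mark the anterior or posterior margin of a limb bud moved both ways, 13 lower and 9 higher of 29 named copies. The posterior regulator hand2, a helix-loop-helix factor upstream of Sonic hedgehog in mouse, rose in both copies. hand2.L stood at 90.9 and 71.7 CPM in proximal and 338 and 387 CPM in medial (log2 fold change 2.17, SE 0.13, adjusted p in edgeR = 2.57e-06), and hand2.S at 30.2 and 22.4 CPM in proximal and 109.8 and 117 CPM in medial. The anterior genes moved both ways: alx4.L and alx1.S fell by 0.86 and 1.67 on the log2 scale, and pax9.L, described above, rose by 4.36. msx1.S, a homeobox target of BMP signals, stood at 29.2 and 27.9 CPM in proximal, 12.1 and 10.8 CPM in medial and 35.6 and 29.5 CPM in distal, and msx2.S at 78 and 71.8 CPM in proximal, 40.4 and 34.4 CPM in medial and 132 and 131 CPM in distal. The msx genes were thus lowest in the medial segment.

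Retinoic acid genes mostly fell, with the breakdown enzymes among the exceptions. Of 27 named copies 16 fell and 5 rose, with a median log2 fold change of −0.50; without proximal pool 2 the counts were 9 and 3. aldh1a2.L, the main synthesis enzyme of embryos, stood at 98.2 and 106 CPM in proximal and 8.91 and 7.26 CPM in medial (log2 fold change −3.66, SE 0.12, adjusted p in edgeR = 1.81e-08). rdh10.L, which makes its substrate, fell by 1.11, from 196 and 225 to 98.9 and 97.3 CPM, and stra6.L, a membrane receptor for retinol uptake, fell by 2.35. No medial pool of these genes reached a proximal pool, where 43.6% of all genes tested had pools that did not overlap.

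The receptor rarb, whose gene retinoic acid itself induces in many tissues, fell in both copies: rarb.S stood at 8.6 and 11.7 CPM in proximal and 1.39 and 1.49 CPM in medial (−2.84, SE 0.25) and rarb.L at 5.48 and 6.05 CPM in proximal and 1.36 and 1.45 CPM in medial. dhrs3.L, another gene that retinoic acid induces, stood at 70.2 and 62.5 CPM in proximal and 25.3 and 25.9 CPM in medial (−1.37, SE 0.10). crabp1.S, described above, belongs here too. The breakdown enzyme cyp26b1 rose in both copies, cyp26b1.S from 18.3 and 16.4 to 39.3 and 40.6 CPM (log2 fold change 1.22, SE 0.10, adjusted p in edgeR = 2.33e-05) and cyp26b1.L by 0.72. Another synthesis enzyme, aldh1a3.L, went the other way from aldh1a2, at 1.13 and 0.728 CPM in proximal and 3.04 and 2.94 CPM in medial, with a call that was lost without proximal pool 2 (adjusted p = 0.0846).

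Hedgehog genes split by role. Of 20 named copies 8 rose, among them copies of the receptor ptch1, the factors gli1 and gli2 and the binding protein hhip, and 7 fell, of the co-receptors boc, cdon and gas1 and the release protein disp1. ptch1.L, the receptor gene that the pathway itself induces, stood at 41.7 and 31.4 CPM in proximal and 95.6 and 89.5 CPM in medial (log2 fold change 1.36, SE 0.13, adjusted p in edgeR = 5.27e-05), and ptch1.S at 22 and 15.4 CPM in proximal and 52.7 and 42 CPM in medial. gli1.L, a transcription factor gene that is also a target, stood at 13 and 12.4 CPM in proximal and 24.5 and 24.5 CPM in medial (0.95, SE 0.10). Both medial pools exceeded both proximal pools in each of these; among all genes tested, the pools of the segments did not overlap for 43.6%. Of the co-receptors, cdon.S stood at 164 and 162 CPM in proximal and 77.7 and 73.4 CPM in medial (−1.11, SE 0.09) and gas1.L at 177 and 188 CPM in proximal and 89.3 and 87.4 CPM in medial (−1.05, SE 0.09). The ligand gene shh.L stood at 7.08 and 2.27 CPM in the proximal and 13.2 and 17.5 CPM in the medial pools; the ranges did not overlap, but the proximal pools differed widely and the test was not passed (log2 fold change 2.02, SE 0.52, adjusted p in edgeR = 0.131). Without proximal pool 1, which had the higher proximal level, its adjusted p was 0.000333.

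Genes of the fibroblast growth factor (FGF) pathway rose mainly where they encode feedback inhibitors, and ligands were found on both sides. The called receptor copies fgfr2.S, fgfr3.L and fgfr4.L fell, and the receptor-like gene fgfrl1.L rose by 0.56. Of 36 named copies 15 rose and 10 fell; without proximal pool 2 it was 6 and 6. spry4.L, an inhibitor that FGF signals induce, stood at 13 and 9.66 CPM in proximal and 25.3 and 20.3 CPM in medial (1.06, SE 0.16), and dusp6.L, a phosphatase induced in the same way, at 22.4 and 16.8 CPM in proximal and 33.5 and 27.4 CPM in medial (0.67, SE 0.15; adjusted p = 0.175 without proximal pool 2). The mesenchymal ligand fgf10 rose in both copies, fgf10.S from 4.53 and 2.49 to 9.83 and 7.84 CPM. The tip ectoderm ligand fgf8.L stood at 1.79 and 1.34 CPM in proximal, 4.81 and 2.9 CPM in medial and 27.7 and 32.2 CPM in distal, and its call was lost without proximal pool 2 (adjusted p = 0.277). Among the falls, fgf7.L, a mesenchymal ligand that acts on epithelia, stood at 8.41 and 6.05 CPM in proximal and 0.77 and 0.835 CPM in medial (−3.12, SE 0.26, adjusted p in edgeR = 2.16e-05).

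Wnt pathway genes moved both ways, 17 lower and 11 higher of 63 copies, with a median log2 fold change of −0.094; without proximal pool 2 the higher count was 7. wnt5a.L, a ligand of outgrowth, stood at 15.3 and 14.7 CPM in proximal and 28.4 and 29.5 CPM in medial (0.95, SE 0.10), whereas wnt11.L stood at 23.8 and 23.5 CPM in proximal and 8.25 and 9.91 CPM in medial (−1.38, SE 0.15). The receptor ror1.L fell by 1.29, from 126 and 149 to 55.5 and 57.2 CPM. frzb.S, a secreted antagonist of cartilage precursors, stood at 42.1 and 44.9 CPM in proximal, 100.2 and 104 CPM in medial and 5.72 and 4.73 CPM in distal, while another, sfrp5.L, stood at 42 and 48.4 CPM in proximal, 14.1 and 17.7 CPM in medial and 0.417 and 0.135 CPM in distal. The first of these peaked in the medial segment and the second fell at each step.

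In the BMP and TGF-beta group 16 of 47 named copies fell and 5 rose. Without proximal pool 1 the counts were 9 and 3, and without proximal pool 2 they were 8 and 2. The joint and skeleton ligand genes gdf5.S and bmp5.L fell by 1.18 and 1.13, and the antagonist nog.L by 1.13, from 12.1 and 11.3 to 5.94 and 4.68 CPM. Of their other copies, gdf5.L and bmp5.S were not called (log2 fold changes −0.15 and −0.20), and nog.S was called lower (−0.56). tgfb2.L went up, from 20 and 22.2 to 40.6 and 40.4 CPM (0.93, SE 0.11), but its other copy tgfb2.S was not called (log2 fold change −0.24). Notch genes moved in the falling direction where called: 10 of 19 fell and none rose, with 5 falls left without either proximal pool. The target hey1.L stood at 18.5 and 16.8 CPM in proximal and 6.53 and 8.09 CPM in medial, the ligand dll1.L at 38.4 and 33.9 CPM in proximal and 14 and 16.8 CPM in medial and the modifier lfng.S at 26 and 23.7 CPM in proximal and 9.43 and 9 CPM in medial. The receptor notch1.L stood at 28.8 and 29.5 CPM in proximal and 35.1 and 27.6 CPM in medial and did not pass the test (edgeR adjusted p = 0.767).

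**Figure D4:**
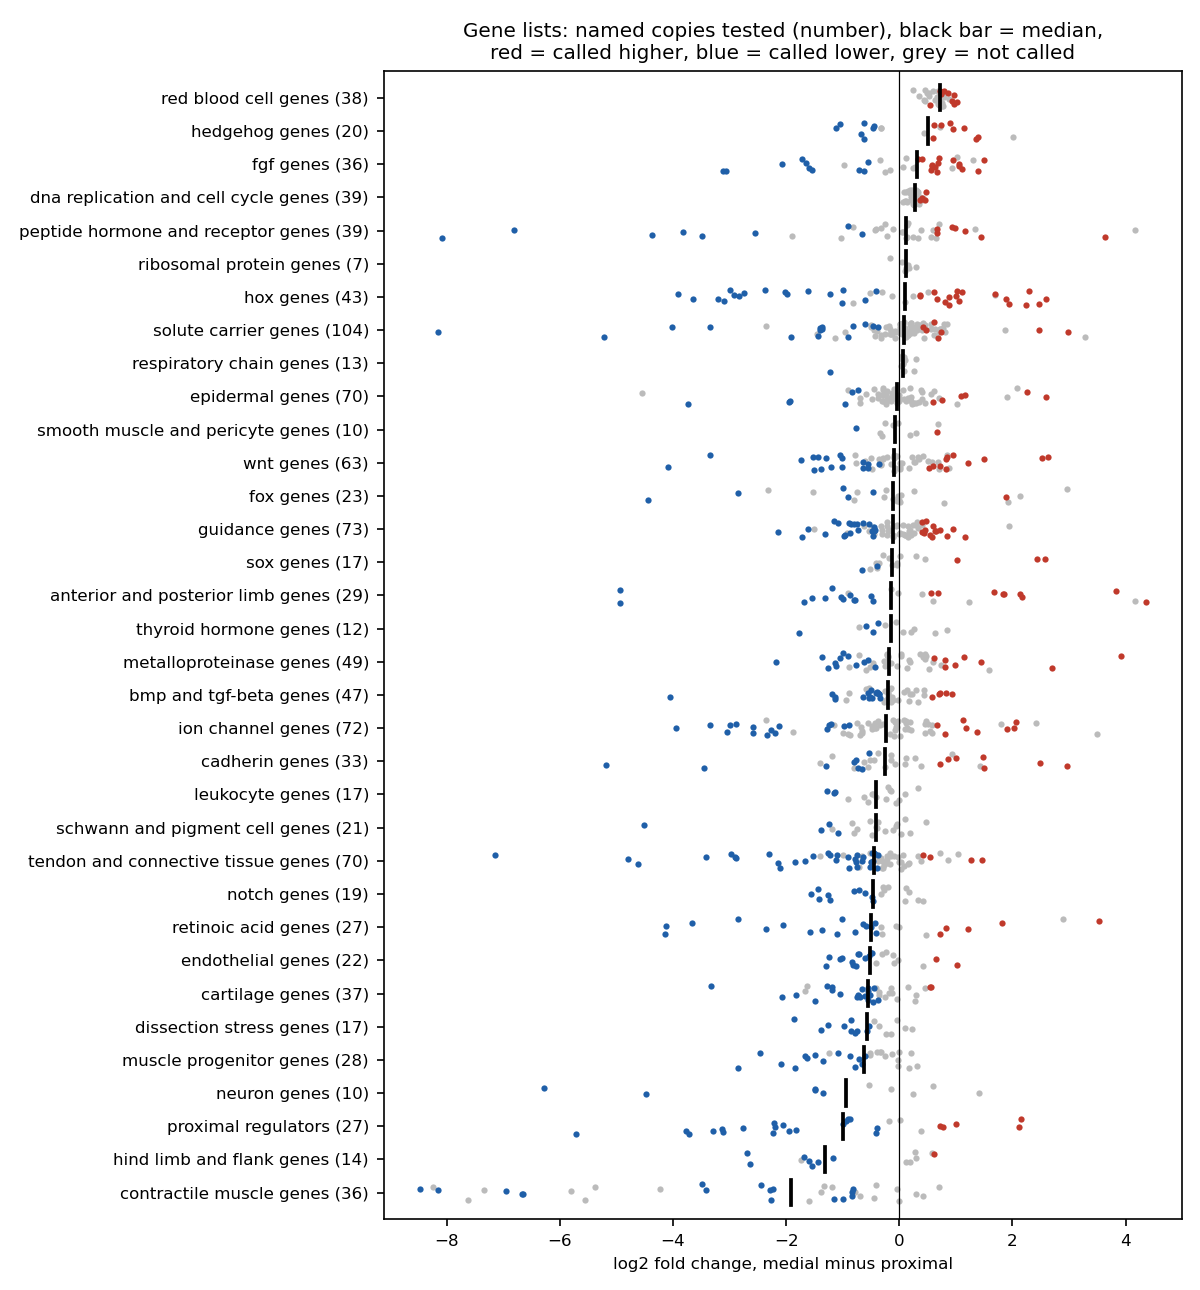
Each row is a gene group with the number of named copies tested, and each point a copy placed by its edgeR log2 fold change of medial minus proximal; red points were called higher, blue lower, grey not called, and the black bar is the median. Contractile muscle genes lie furthest to the left with a median of −1.92, and red blood cell genes furthest to the right with a median of 0.72.

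Several of the groups had no called member in a direction. This was so for 13 combinations of group and direction in 12 groups, among the genes of Notch, contractile muscle, muscle progenitors, red blood cells, leukocytes, Schwann cells, neurons, thyroid hormone, DNA replication, ribosome, respiration and stress. In these directions edgeR gave 10 members an unadjusted p under 0.05, at most 3 in a group, and DESeq2 called 0. Other fits did call some of them, all higher in medial. Without medial pool 2 these were 1 Notch, 1 contractile muscle, 1 neuron and 2 thyroid hormone genes, with no filter on low counts 1 contractile muscle, 1 neuron and 1 thyroid hormone gene, and with a replicate block 1 neuron gene.

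Where muscle genes were called they fell across the cut, the contractile ones from low levels. Of 36 named copies of contractile genes 16 fell and none rose, with a median log2 fold change of −1.92 (−1.86 with genes near the floor set at their bound); without proximal pool 2, only 3 were called. Their summed level was 143 and 204 CPM in the proximal pools and 93.5 and 84.6 CPM in the medial pools. myh4.L, a fast myosin heavy chain, stood at 3.68 and 2.44 CPM in proximal and 0 and 0.0363 CPM in medial (edgeR adjusted p = 0.00611). This is 126 fragments against 1, a ratio of 149 with an exact 95% counting interval of 26.3 to 5939. This interval too leaves out the spread between pools. tnnt3.L, a fast troponin, stood at 7.93 and 9.77 CPM in proximal and 5.17 and 4.94 CPM in medial (−0.84, SE 0.17, adjusted p in edgeR = 0.00962, or 0.197 without proximal pool 2).

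Muscle progenitor genes fell in 14 of 28 named copies and rose in none, with 8 falls without proximal pool 1 and 6 without proximal pool 2. pax7.L, a gene of muscle satellite cells, stood at 2.46 and 3.44 CPM in proximal and 0.477 and 0.363 CPM in medial (−2.85, SE 0.34). eya4.L and eya1.L, transcriptional cofactors that other mesenchyme expresses too, fell too, eya4.L from 45.9 and 51.8 to 12.3 and 10.8 CPM and eya1.L from 17.8 and 18.6 to 6.16 and 6.86 CPM. The migrating limb muscle precursor gene lbx1.L and the muscle commitment gene myf5.L did not pass the test. lbx1.L stood at 16.7 and 15.5 CPM in proximal and 19.2 and 17.5 CPM in medial, and myf5.L at 6.05 and 6.92 CPM in proximal and 5.76 and 7.33 CPM in medial (edgeR adjusted p = 0.513 and 0.996). The pools of the segments overlapped for myf5.L and lay apart for lbx1.L, slightly higher in medial. myod1.L stood at 1.61 and 1.4 CPM in proximal and 0.954 and 1.27 CPM in medial and did not pass the test either.

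Tendon and connective tissue genes fell in 33 of 70 named copies and rose in 4, with a median log2 fold change of −0.45. The fall included major collagens and proteins of dense matrix. postn.S, which encodes periostin, stood at 1095 and 1114 CPM in proximal and 327 and 285 CPM in medial (−1.85, SE 0.11, adjusted p in edgeR = 2.04e-06), and col3a1.L at 630.2 and 686 CPM in proximal and 297 and 253 CPM in medial (−1.26, SE 0.11). kera.L, a small leucine-rich proteoglycan, stood at 38.2 and 45.5 CPM in proximal and 17.8 and 11.5 CPM in medial. The tendon regulator mkx.L stood at 1.51 and 2.32 CPM in proximal and 0.33 and 0.581 CPM in medial (−2.14, SE 0.38; adjusted p = 0.174 without proximal pool 2), but scx.S, which defines tendon precursors, stood at 79.9 and 90.1 CPM in proximal and 63.5 and 83.1 CPM in medial without passing the test (edgeR adjusted p = 0.485, or 0.0445 without medial pool 2). Against the trend, thbs1.S stood at 20.5 and 18.4 CPM in proximal and 46.5 and 59.7 CPM in medial (1.46, SE 0.13) and the elastic fibre gene fbn2.S at 13.3 and 11.4 CPM in proximal and 31.5 and 26.7 CPM in medial.

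Cartilage genes fell in 20 of 37 named copies and rose in 2, with a median of −0.54; without proximal pool 2, 8 fell. The falls were modest for the main matrix genes. col9a1.L stood at 207 and 228 CPM in proximal and 126 and 159 CPM in medial (−0.61, SE 0.12; adjusted p = 0.0971 without proximal pool 2), and col2a1.S at 323 and 408 CPM in proximal and 251 and 280.0 CPM in medial (−0.46, SE 0.12). The call of col2a1.S was lost without medial pool 1 (adjusted p = 0.114) and without proximal pool 2 (adjusted p = 0.264). matn4.L, a matrilin, stood at 43.3 and 58.3 CPM in proximal and 12.4 and 16.7 CPM in medial (−1.82, SE 0.17) and ucma.L at 6.99 and 5.38 CPM in proximal and 1.36 and 1.49 CPM in medial. The master regulator sox9 did not pass the test in either copy; sox9.L stood at 175 and 197 CPM in proximal and 145 and 218 CPM in medial, overlapping ranges. Both copies of trps1, a zinc finger gene of growing cartilage, rose, trps1.S from 53.7 and 58.6 to 83 and 83.8 CPM; exons of trps1.L overlap another gene.

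Blood and vessel genes moved in opposite directions. All 38 named copies of red blood cell genes had a positive log2 fold change, between 0.25 and 1.03 with a median of 0.72, and 9 rose by the test. Without proximal pool 1, medial pool 1 or medial pool 2 that number was 4, 15 or 5. Their summed level was 33404 and 45869 CPM in the proximal pools, 60886 and 70903 CPM in the medial pools and 2804 and 1420 CPM in distal. These copies have names only because the authors called them between some pair of segments, so their shared sign is not independent support. Of all named genes 9.82% were higher, and the count of 9 was not tested against that share. The comparison was repeated without the globin genes: 2037 genes were called, 1999 of them among the 2053. Endothelial genes fell in 13 of 22 copies and rose in 2; without proximal pool 1 the numbers were 7 and 2, and without proximal pool 2 they were 8 and 1. mmrn2.L, an endothelial matrix protein, stood at 31.8 and 29.9 CPM in proximal and 12.5 and 12.7 CPM in medial (−1.29, SE 0.10), pecam1.L at 26 and 23.9 CPM in proximal and 15.6 and 14.6 CPM in medial and the apelin receptor aplnr.L at 22.2 and 19.2 CPM in proximal and 10.5 and 9.69 CPM in medial. Proximal pools were above medial pools for all 3, and pools did not overlap for 43.6% of all genes tested. klf2.L, a factor that blood flow induces in vessels but that was listed here among the dissection stress genes and not the endothelial ones, fell by 1.38.

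Of 17 leukocyte copies 3 fell, all subunits of complement C1q, which macrophages make, and 6 fell without medial pool 1. c1qb.L stood at 19.9 and 18.7 CPM in proximal and 10 and 7.48 CPM in medial (−1.14, SE 0.15), while the general marker ptprc.L stood at 3.21 and 4.45 CPM in proximal and 3.52 and 3.27 CPM in medial and did not pass the test. Neuron genes fell in 5 of 10 copies (3 without proximal pool 2), among them the axon growth gene gap43.S, at 9.45 and 9.88 CPM in proximal and 3.56 and 4.03 CPM in medial (−1.35, SE 0.16). Schwann and pigment cell genes fell in 4 of 21 copies, with 2, 0 and 8 without proximal pool 1, proximal pool 2 and medial pool 1. Their defining gene sox10.S stood at 11 and 10.9 CPM in proximal and 9.57 and 5.7 CPM in medial and did not pass the test (edgeR adjusted p = 0.23, or 0.00308 without medial pool 1). Smooth muscle and pericyte genes changed in 2 of 10 copies: rgs5.L fell by 0.76 and cspg4.L rose by 0.67, and each call was lost in at least 1 fit without a library. Among all named genes 16.7% were lower and 9.82% higher, and the counts of these cell types were not tested against those shares.

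Epidermal genes split evenly, 6 higher and 6 lower of 70. Among all named genes 9.82% were higher and 16.7% lower, and the epidermal counts were not tested against those shares. The medial pools did not match. Without medial pool 1, 31 fell, and without medial pool 2, 17 rose, so counts for this group follow the medial pool used. tp63.L, the regulator of basal epidermis, stood at 31.5 and 30.2 CPM in proximal and at 30.8 and 16.5 CPM in medial (edgeR adjusted p = 0.623, or 0.000122 without medial pool 1). Both medial pools lay on the same side of the proximal pools for 43.6% of all genes tested, and a call favours this order. It held for each of the 12 called copies, so it adds no support to their calls. Among them were krt15.1.S, a keratin at 8.69 and 8.57 CPM in proximal and 2.71 and 1.74 CPM in medial (−1.95, SE 0.23), and dlx5.L, a homeobox gene at 13 and 11.3 CPM in proximal and 23.5 and 30 CPM in medial (1.16, SE 0.14). Of the other keratins krt15.1.L fell by 3.73 and krt12.6.L by 1.94, and krt8.1.L rose by 1.1 on the log2 scale; without proximal pool 2 the calls of krt15.1.L and krt8.1.L were lost (edgeR adjusted p = 0.0502 and 0.129). Whether this difference between the medial pools has a part in the values of ectoderm genes such as fgf8.L was not tested.

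Genes that guide axons and cell boundaries changed in both directions, 21 lower and 14 higher of 73 named copies. Without proximal pool 2 this was 11 and 8, and without proximal pool 1 there were 6 rises. ntn1.S, a netrin, stood at 68.3 and 66 CPM in proximal and 24.4 and 19.5 CPM in medial, though its exons overlap another gene, and the semaphorin gene sema3fl.L stood at 18.5 and 18.9 CPM in proximal and 5.54 and 5.88 CPM in medial (−1.71, SE 0.14). Rising examples were the ephrin efna2.S, from 34.2 and 32.5 to 64.4 and 64.7 CPM, and sema4g.L, from 5.29 and 5.57 to 13 and 11.4 CPM. epha4.S, an ephrin receptor of the limb mesenchyme, stood at 108 and 101 CPM in proximal, 74.1 and 69.3 CPM in medial and 161 and 170.5 CPM in distal. Among all named genes 16.7% were lower and 9.82% higher, and the guidance counts were not tested against those shares.

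Of 33 cadherin and protocadherin copies 8 fell and 7 rose (5 fell without proximal pool 1, and 4 fell and 3 rose without proximal pool 2). N-cadherin, a mesenchymal adhesion molecule, fell in both copies: cdh2.S stood at 36 and 32.7 CPM in proximal and 15.7 and 12.2 CPM in medial (−1.29, SE 0.13) and cdh2.L at 20.7 and 22.7 CPM in proximal and 13.3 and 12.4 CPM in medial. cdh22.L stood at 3.68 and 4.37 CPM in proximal, 10.7 and 12.3 CPM in medial and 2.17 and 2.36 CPM in distal, highest in the middle. Among 49 copies of metalloproteinases and their relatives 12 fell and 8 rose (7 and 5 without proximal pool 2). mmp23b.S stood at 58.5 and 58.3 CPM in proximal and 12.7 and 13.2 CPM in medial (−2.17, SE 0.12, adjusted p in edgeR = 1.21e-06), and adamtsl5.L went from 11.1 and 7.92 up to 23.1 and 26.8 CPM. Among all named genes 16.7% were lower and 9.82% higher. The cadherin and metalloproteinase counts were not tested against those shares.

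Ion channel genes fell in 16 of 72 copies and rose in 8, but without proximal pool 2 only 6 fell and none rose, and without proximal pool 1 there were 5 rises. kcnj2.L, an inwardly rectifying potassium channel, stood at 49.8 and 47.5 CPM in proximal, 5.72 and 6.06 CPM in medial and 17.5 and 19 CPM in distal (−3.04, SE 0.11, adjusted p in edgeR = 4.14e-08). Of all named genes 16.7% were lower and 9.82% higher. The ion channel, solute carrier and peptide hormone counts were not tested against these shares. Solute carriers fell in 15 of 104 copies and rose in 7, with a median of 0.083 (0.074 with bounds). Without proximal pool 2 it was 5 and 4, and without medial pool 1 there were 12 rises. slc6a8l.S, of the creatine transporter family, stood at 33.6 and 47.9 CPM in proximal and 4.03 and 4.06 CPM in medial and slc6a3.S, the dopamine transporter gene, at 4.53 and 5.24 CPM in proximal and 0.147 and 0.109 CPM in medial. Peptide hormone and receptor genes fell in 8 of 39 copies and rose in 7 (median 0.12, or 0.071 with bounds), with 4 and 4 without proximal pool 2 and 4 rises without proximal pool 1. npr1.S, a natriuretic peptide receptor whose exons overlap another gene, stood at 21.5 and 21.2 CPM in proximal and 1.76 and 1.27 CPM in medial, and tacr1.S, the receptor of substance P, rose from 0.378 and 0.364 to 3.81 and 5.48 CPM.

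Forkhead genes fell in 5 of 23 copies and rose in 1 (none without proximal pool 2, 2 without medial pool 2). Shares among all named genes were 16.7% lower and 9.82% higher. The forkhead, Sox and thyroid hormone counts were not tested against them. Apart from foxc2, the forkhead falls were of the foxp genes: foxp4.S stood at 414 and 417 CPM in proximal and 205 and 212 CPM in medial, and foxp2.S at 88.9 and 92.3 CPM in proximal and 51.2 and 45.6 CPM in medial. Among 17 Sox copies 3 rose, sox7.S and the 2 gene models named sox2.L, and 2 fell, sox8.S and sox4.L. Without proximal pool 2 the calls of sox7.S, sox2.L gene41682, sox8.S and sox4.L were lost. Their log2 fold changes were then 1.09, 2.67, −0.55 and −0.37. The call of sox4.L was also lost without proximal pool 1 (log2 fold change −0.39). Thyroid hormone genes, which drive later metamorphosis, fell in 4 of 12 copies and rose in none, with 2 falls without proximal pool 2, and 2 falls and 2 rises without medial pool 2. The activating deiodinase dio2 fell in both copies, dio2.S from 28.4 and 28.4 to 8.99 and 7.66 CPM (−1.77, SE 0.12, adjusted p in edgeR = 5.46e-06) and dio2.L from 389.8 and 368 to 270.3 and 237 CPM.

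DNA replication and cell cycle genes had positive log2 fold changes in all 39 named copies, with a median of 0.28. By the test 4 rose, a number that changed with the library left out. Of all named genes 9.82% were higher, and this count was not tested against that share. The copies are named only because the authors called them between some pair of segments, so their shared sign is not independent support. pcna.S, the sliding clamp of DNA replication, stood at 95.6 and 112 CPM in proximal and 141 and 149 CPM in medial (0.48, SE 0.10; adjusted p = 0.0756 without proximal pool 1). None of 7 ribosomal protein copies and 1 of 13 respiratory chain copies was called, the latter cox4i2.L, which fell by 1.22 and overlaps another gene. Immediate early and stress genes, which dissection can induce, fell in 10 of 17 copies, with 2 without proximal pool 2. Their summed level was 1153 and 1124 CPM in the proximal and 1029 and 1004 CPM in the medial pools. In the distal pools it was 1214 and 1160 CPM. The proximal and medial sums did not overlap, and the pools of these segments did not overlap for 43.6% of all genes tested. Of all named genes 16.7% were lower, and the count of 10 was not tested against that share. junb.L stood at 13.6 and 18.4 CPM in proximal and 9.57 and 8.53 CPM in medial (−0.85, SE 0.18; adjusted p = 0.219 without proximal pool 2). The part of tissue handling in other falls was not tested.

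The signed log2 fold changes at the inner and at the outer cut, which share the medial libraries, differed for many genes. The change across the inner cut minus the change across the outer cut, from medial to distal, was tested as its own contrast, chosen after values had been seen; 2629 genes (9.73%) were called, and 35% of the named genes. Signs count in this contrast, so it does not compare the sizes of steps that run in opposite directions. For gsc.L the inner step was −4.94 against −1.01 at the outer cut (edgeR adjusted p of the difference = 6.85e-05). For hoxa11.L it was 1.94 against −0.27 (edgeR adjusted p of the difference = 1.36e-05). emx2.L, aldh1a2.L, kcnj2.L, nr2f2.L and both msx1 copies fell at the inner cut and rose at the outer one, for aldh1a2.L by 0.96 on the log2 scale (adjusted p of the difference = 4.34e-07). In frzb.S, rergl.S, vegfd.L and osr1.L the order was the reverse, with osr1.L at 50.9 and 56.1 CPM in proximal, 80 and 84.4 CPM in medial and 1.75 and 0.878 CPM in distal; the rise of osr1.L at the inner cut was not called without proximal pool 1 (adjusted p = 0.0746). For gsc.S, igsf10.S, six2.S, sall3.S and slc39a12.S no difference between the steps was detected, and with 2 pools per segment this does not show that the steps were equal.

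**Figure D5:**
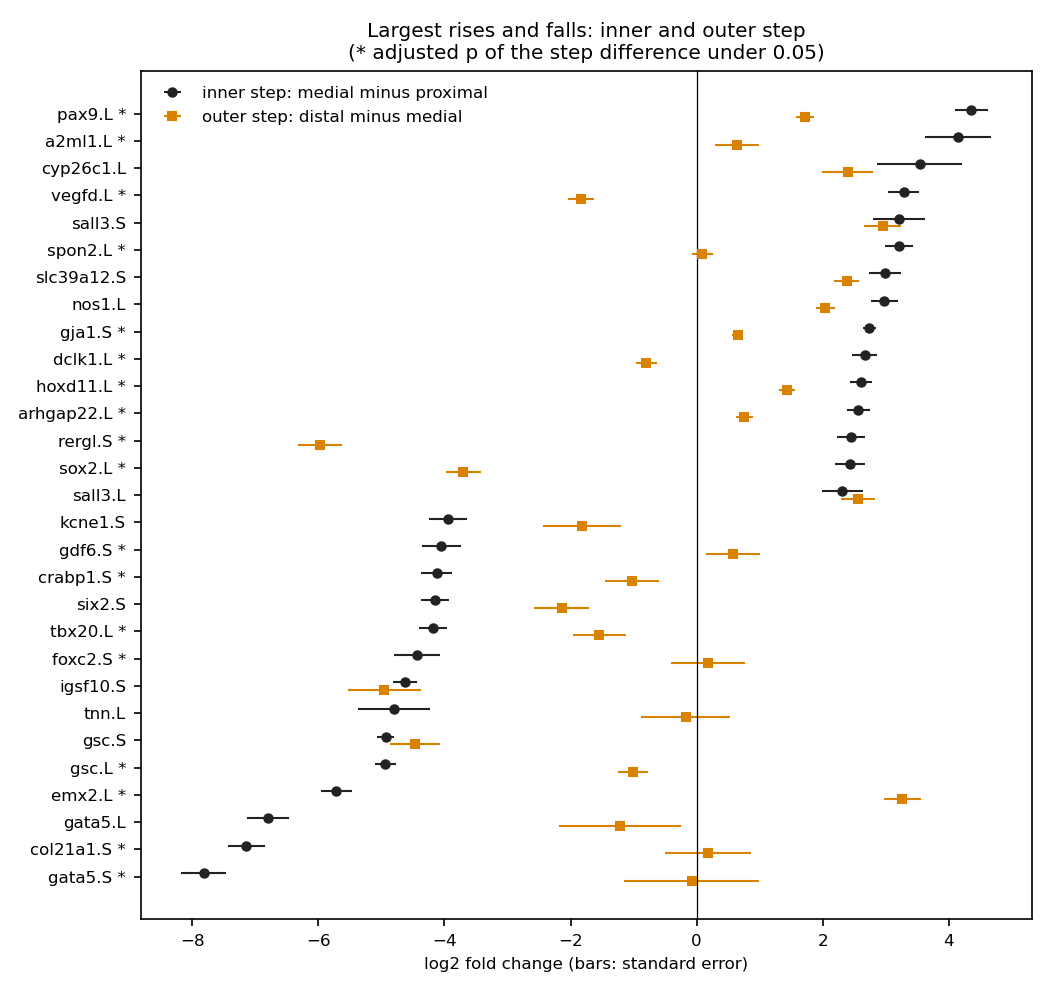
For the 15 largest rises and 14 of the 15 largest falls across the inner cut, black circles give the edgeR log2 fold change of medial minus proximal and orange squares that of distal minus medial, with standard errors; a star marks genes whose steps differed. The orange squares lie nearer to 0 for most falls, and on the other side of 0 beyond their standard error for emx2.L, gdf6.S, vegfd.L, dclk1.L, rergl.S and sox2.L. The genes were picked by the size of the inner step, and some falls ended near the floor. Both favour a smaller outer step in advance.

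Of the 1540 genes that the authors' deposited table lists for this comparison, 1536 passed the filter used here. In the authors' deposited table no gene had a sign opposite to the one found here, and 1443 were also called. For irx3.S, the gene with the smallest adjusted p in the authors' deposited table, the log2 fold change there was −3.70 after reversing the sign to medial minus proximal.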

How the data were processed

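Fragment counts per gene, gene lengths in base pairs (bp) and a table of the authors' own comparisons were deposited. Per the submitters' processing notes and the file headers, reads were handled with bcl2fastq, Trimmomatic 0.39, HISAT2 2.2.1 and SAMtools 1.10, and the deposited counts of whole fragments were made by featureCounts 2.0.1 in paired-end mode with default settings, so strand was not used and multi-mapping reads, which near-identical L and S copies can share, were not counted. The genome build is not given in the sources used here. In the deposited table of comparisons (DESeq2 1.30.1), the authors give a mean normalized-count signal, a log2 fold change and a p-value with its adjusted value per gene and pair of segments; gene symbols come from that table alone. The deposited assignment summary gives counts of fragments per category; 75.7% to 78.2% of fragments were assigned.

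Counts of all 6 libraries were fitted with the quasi-likelihood model of edgeR 4.0.16 under R 4.3.3 (robust, TMM factors, segment as the only term). Genes were kept with filterByExpr (minimum count 10, minimum total 15), p-values were adjusted by Benjamini-Hochberg over 27007 genes, and the standard error of a log2 fold change is its size divided by the square root of F. Fitted fold changes use edgeR's default prior count, and log2 CPM for the checks of pools a prior count of 2. The test was tried on simulated counts first. The pools of a segment differed by more than sampling noise (chi-square per degree of freedom 8.51 proximal and 13.3 medial). They were counted as 2 replicates. The p-values rest on the spread between pools of the same segment in all 6 libraries, distal included, with that estimate partly shared across genes.

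The comparison and the gene lists were chosen with earlier results of these data known. Genes named are the 15 largest rises and falls among called genes with the same direction between pools of the same number and at least 5 CPM in the higher segment, up to 4 called members per list and direction with at least 1 CPM, and defining or other members chosen after their values were seen. Results for some genes that these rules select are not reported here. Alternatives were DESeq2 1.42.0, RLE size factors, no filter and a filter of 10 counts in each of the 4 libraries, a test against a 1.5-fold change (glmTreat), globin genes left out, the 4 libraries alone, the pool number as a block, and each library left out in turn.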

Additional observations from a re-analysis of the deposited data

How the results depend on the processing

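DESeq2 called 1561 genes, RLE size factors 2050, the filter of 10 counts in each library 1702, and the 4 libraries alone 1695, each within 1.5 times the 2053 of the fit reported. The test against a 1.5-fold change called 668 genes, 179 higher and 489 lower, 633 of them with at least a 2-fold change. With no filter on low counts 3058 genes were called, 1178 of them higher. Leaving out a library gave 996 to 2617 called genes, 359 to 991 higher, 637 to 1778 lower and 571 to 1254 with at least a 2-fold change, the lowest values all without proximal pool 2. The share of higher genes among those called was 35.9%, and 46.1% without medial pool 2. A fit with a replicate block, by pool number, called 2629 genes (982 higher, 1647 lower, 1080 with at least a 2-fold change), 2029 of them shared with the 2053; the deviations of same-numbered proximal and medial pools correlated at 0.203, and with 2 pools a segment the numbers are not known to mark anything shared. Of 263 named genes and gene models, 20 lost their call with DESeq2, 79 against a 1.5-fold change, 13 with the 4 libraries alone, 7 with the block, and 17 to 67 when a library was left out, 67 of 262 without proximal pool 2. None of these that was called in the fit reported changed its direction in any setting listed here, and over all genes none called in both fits did; without medial pool 1, 11 genes not called in the fit reported were called with the opposite sign, and without medial pool 2, 1 gene. Among genes not called, the log2 fold change of myf5.L turned from −0.01 to 0.0099 with DESeq2, 0.0017 with RLE size factors, 0.0075 without globin genes, and 0.016 with the block. When a library was left out, the log2 fold change ranged from −0.19 to 0.16 for myf5.L, −0.079 to 0.27 for notch1.L, −0.39 to 0.093 for ptprc.L, −0.36 to 0.23 for sox9.L and −0.89 to 0.0053 for tp63.L. The cause of these shifts was not tested. Depth limits genes under about 0.283 CPM, the floor of proximal pool 1.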

Other observations

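Xenopus laevis carries many genes as an L and an S copy, and the inner cut separated some copies of a pair. Both copies were named and tested for 1189 pairs. Both were called in 246, in the same direction in 231 and in opposite directions in 15, and only 1 copy was called in 334. These pairs were picked by their calls, and the difference between copies was not tested as such.

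The widest splits among the 15 opposite pairs were in fgf13, dkk2, trhde and tmc3. dkk2, a secreted Wnt antagonist, had a mean of 32.6 CPM in proximal and 56.5 CPM in medial for the L copy (log2 fold change 0.82, edgeR adjusted p = 0.0134), and 23.6 and 2.34 CPM for the S copy (−3.35, edgeR adjusted p = 7.37e-07). trhde, the enzyme that degrades thyrotropin-releasing hormone, went from 21.7 to 9.46 CPM in the L copy (−1.19) and from 4.37 to 20.4 CPM in the S copy (2.21). fgf13, an intracellular FGF family member, rose by 1.12 in the L copy and fell by 3.06 in the S copy. The L copy had a mean of 1.73 CPM in proximal and 3.58 CPM in medial. Its call was lost with DESeq2 (adjusted p = 0.123), against a 1.5-fold change, and without proximal pool 2 (log2 fold change 0.86). The channel-like gene tmc3 fell by 1.25 in L and rose by 2.14 in S. The vessel and progenitor marker cd34 fell by 0.48 in L, from 163 to 117 CPM, and rose by 0.65 in S, from 60.0 to 93.7 CPM. Reads that fit both copies of a pair were not counted, so these levels rest on the stretches where the copies differ.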
